A study of Mus musculus with 8 samples.

Results

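The genes of 3 related families, the ADAM, ADAMTS and ADAMTS-like genes, were followed in cells sorted from mouse lungs carrying Eml4-Alk tumors. The members were all genes of the count table whose symbol begins with Adam, Adamts or Adamtsl followed by a digit, which gave 58 of 27179 genes, made up of 34 ADAM, 19 ADAMTS and 5 ADAMTS-like genes. Members were chosen by name and not by their level, though with earlier results of these data known. The mice were C57BL/6 animals (female C57BL/6J in the study's methods) in which an adenovirus with Cas9 and guide RNAs, given through the trachea, had joined the Eml4 and Alk genes. They were 18 to 22 weeks old and 11 to 12 weeks past tumor induction. All mice received 4.5 nmol of QZ1-(PEG2K), a quenched Cy5 probe whose peptide linker can be cut by serine proteases and by matrix metalloproteinases, and the lungs were taken 2 h after the injection. In tumor sections, the paper found that a serine protease inhibitor lowered labeling by a probe with this peptide as far as a broad inhibitor mix did. An inhibitor of matrix metalloproteinases lowered it less, and the paper proposes that serine proteases mainly cut the peptide there. Live cells without CD45 and CD11b on their surface, which leaves mostly non-blood cells, were sorted by Cy5 into QZ1-hi and QZ1-lo populations of at least 100000 cells each. Each population was sequenced as total RNA in 4 libraries. Both populations came from tumor-bearing, probe-injected lungs, and no library of healthy lung, of uninjected mice or of purified tumor cells entered the comparison. The comparison asks which genes differ in RNA level between cells with high and cells with low probe signal. Cells with a signal between the gates entered neither population.

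ADAM proteins are membrane-anchored metalloproteases with a disintegrin domain, and their best known work is shedding, the release of growth factors, cytokines and receptors from the cell surface. ADAMTS proteins are secreted metalloproteases that carry thrombospondin type 1 repeats and cut matrix molecules such as versican, aggrecan and procollagen, while ADAMTS-like proteins have the repeats without the protease domain and bind fibrillin microfibrils. In lung, fibroblasts and vascular cells are well known sources of ADAMTS proteins, whereas many ADAM genes of the mouse are used in the testis. RNA counts give the level of a transcript and not the activity of the enzyme.

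Promoter windows are shown for the ADAMTS member with the highest level, for a procollagen N-propeptidase and an ADAMTS-like gene that were both higher in QZ1-hi, and for Adam8, which was lower, so that the promoters of members moving in different directions can be read side by side. Each is the 250 bases before the transcript start given by RefSeq, printed 5′ to 3′ on the strand of the gene, with coordinates of build GRCm38.p6. Capitals mark matches on either strand to the TATA box TATAAA or the GC box GGGCGG. The annotated genes of Adamtsl2 and Adam8 also have earlier starts.
Adamts1, chr16:85803114-85803363, minus strand: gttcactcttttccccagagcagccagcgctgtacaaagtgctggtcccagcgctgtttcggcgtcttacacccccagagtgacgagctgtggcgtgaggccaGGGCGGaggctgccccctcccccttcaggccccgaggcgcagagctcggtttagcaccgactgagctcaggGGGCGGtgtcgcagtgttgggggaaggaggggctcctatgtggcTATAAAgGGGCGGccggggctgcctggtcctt
Adamts2, chr11:50601835-50602084, plus strand: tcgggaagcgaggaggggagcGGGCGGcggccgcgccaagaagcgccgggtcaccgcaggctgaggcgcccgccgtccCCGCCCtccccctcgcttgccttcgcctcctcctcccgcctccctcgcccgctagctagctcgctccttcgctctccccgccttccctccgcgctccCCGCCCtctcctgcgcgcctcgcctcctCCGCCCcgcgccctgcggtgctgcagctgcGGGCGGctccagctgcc
Adamtsl2, chr2:27079129-27079378, plus strand: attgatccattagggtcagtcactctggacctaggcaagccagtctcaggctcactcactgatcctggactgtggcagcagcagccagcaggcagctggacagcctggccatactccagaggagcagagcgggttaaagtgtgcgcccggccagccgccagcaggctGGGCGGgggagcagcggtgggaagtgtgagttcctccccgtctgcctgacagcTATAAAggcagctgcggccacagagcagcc
Adam8, chr7:139992563-139992812, minus strand: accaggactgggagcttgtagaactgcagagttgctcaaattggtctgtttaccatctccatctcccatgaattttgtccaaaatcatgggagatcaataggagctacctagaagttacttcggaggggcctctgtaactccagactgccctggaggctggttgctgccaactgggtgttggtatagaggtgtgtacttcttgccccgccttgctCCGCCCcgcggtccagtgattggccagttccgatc

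The windows of Adamts1 and Adamtsl2 each held 1 TATA box, which began 32 and 30 bases before the start. The Adamts1 window also held 3 GC boxes, and its GC content was 65.6%. The Adamts2 window had no TATA box, 5 GC boxes and a GC content of 78%. The Adam8 window had no TATA box, 1 GC box and a GC content of 52.8%, beside a median of 52.4% over all windows. Of 32817 windows of this length, 12.4% held a TATA box and 32.7% a GC box. Of the 34 windows of 32 members, 5 held a TATA box and 15 a GC box. The AP-1 letters TGANTCA were in 4 of the 34 member windows and in 6.75% of all windows, the TEAD letters GGAATG in 2 and in 12.6%, and the ETS letters CAGGAA in 7 and in 25.7%, and none of these 3 motifs was in the 4 windows shown. Motifs were searched on both strands, and the TEAD and ETS letters share the run GGAA, so that a stretch can match both. A match describes the letters and not a site in use.

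The libraries held 18380918 to 26847938 counts, and a level of 3 counts, used as the floor, was 0.0894 to 0.179 CPM (counts per library, scaled to a common total with edgeR's TMM factors), which covers counting error only. The share of mitochondrial ribosomal RNA among all counts averaged 50.1% ± 8.76 for QZ1-hi and 37.3% ± 7.50 for QZ1-lo (SD, n = 4 each). The libraries ranged from 39.5% to 58.4% in QZ1-hi and from 30.2% to 47.3% in QZ1-lo, and a two-sided exact permutation test over 70 assignments gave p = 0.0857 (smallest possible p = 0.0286), which does not show that the shares were alike. The part of this share in the results below was not tested. The series describes the libraries as biological replicates but ties no library to a mouse, so p-values measure the spread among these libraries. Ptprc, which encodes CD45, averaged 131 ± 64.2 CPM for QZ1-hi and 125 ± 30.0 CPM for QZ1-lo (SD, n = 4 each), and so was not absent after the sort for CD45-negative cells. Changes below are log2 fold changes of QZ1-hi over QZ1-lo from edgeR's quasi-likelihood test, with the Benjamini-Hochberg adjusted p over all 15583 genes tested and with a call at an adjusted p under 0.05.

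Of the 58 members, 36 had enough counts to be tested and 17 of these were called, 15 higher and 2 lower in QZ1-hi. That is 47.2% of the members tested, beside 18.1% of all genes tested, of which 9.88% were higher and 8.21% were lower. In 19 of the 36 members the 4 QZ1-hi libraries all lay on one side of the 4 QZ1-lo libraries, beside 22.6% of all genes. The families differed in their counts. Of 15 ADAM genes tested, 3 were higher and 2 lower, with a median log2 fold change of 0.04. Of 16 ADAMTS genes tested, 9 were higher and 0 lower, with a median of 2.13, and 15 of the 16 had a value above 0. Of 5 ADAMTS-like genes tested, 3 were higher and 0 lower, with a median of 2.79. The median over all genes tested was 0.02. No ADAMTS or ADAMTS-like gene was lower in edgeR at an unadjusted p under 0.05 either, and DESeq2 and limma's voom each called 0 of them lower. Members could pass the filter on low counts through the population in which they were higher, so these counts describe the members tested and not all 58. Scaling by library size alone, without TMM, moved the median of all genes to -0.44 and the share of higher calls among all calls from 54.6% to 26%, and with it 12 members were higher and 5 lower. The 15 higher and 2 lower members kept their sign under each of the 16 other settings tried that tested them.

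**Figure D1:**
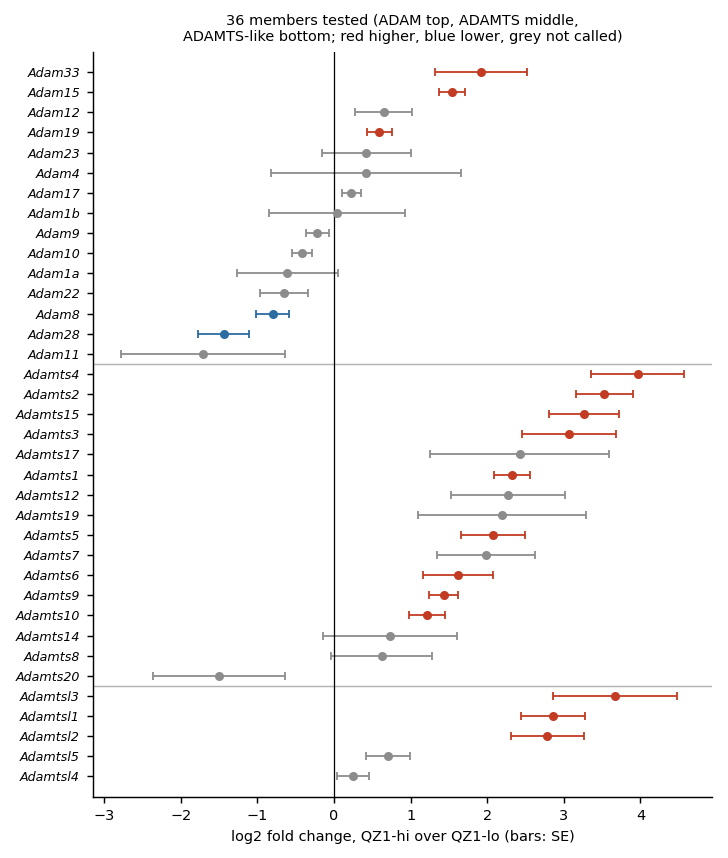
Log2 fold change of QZ1-hi over QZ1-lo (x axis, bars show the SE) for the 36 members tested, with ADAM genes at the top, ADAMTS genes in the middle and ADAMTS-like genes at the bottom. The 15 ADAM genes lie on both sides of 0 with a median of 0.04, while 15 of 16 ADAMTS genes and all 5 ADAMTS-like genes lie above it.

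Summed over its members, the ADAM family was at 503, 437, 434 and 473 CPM in the QZ1-hi libraries (replicates 1 to 4, as in every series of values here, where the numbers only name the libraries and do not pair them) and at 542, 448, 433 and 449 CPM in the QZ1-lo libraries. The ADAM sums of the populations overlapped, and the ratio of their means was 0.986. The ADAMTS family summed to 333, 318, 436 and 269 CPM in QZ1-hi and to 67.9, 75.1, 101 and 62.3 CPM in QZ1-lo. No QZ1-lo library reached a QZ1-hi library, and the ratio of the means was 4.43. Adamts1 gave 43.2% to 59.3% of the ADAMTS counts in QZ1-hi and 43.6% to 47.7% in QZ1-lo, and without it the ratio was 3.95. The ADAMTS-like family summed to 44.6, 73.0, 97.2 and 67.5 CPM in QZ1-hi and to 33.5, 34.1, 39.3 and 30.9 CPM in QZ1-lo, again without overlap, with a ratio of 2.05. In bulk samples fewer cells of a type and less RNA per cell cannot be told apart, which holds for each difference given here.

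**Figure D2:**
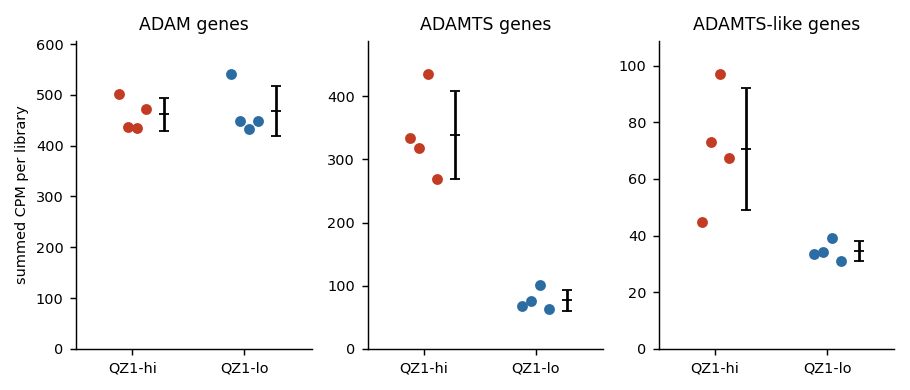
Summed CPM of the ADAM, ADAMTS and ADAMTS-like genes (y axes, each from 0) in the 4 QZ1-hi and 4 QZ1-lo libraries, with the mean and SD beside the points. The ADAM sums of both populations lie between 433 and 542 CPM and overlap, while the ADAMTS sums of QZ1-hi (269 to 436) and QZ1-lo (62.3 to 101) do not.

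Adam9, Adam10 and Adam8 had the highest level per length of the ADAM genes over all libraries, and none of the 3 was higher in QZ1-hi. Adam9, a widely used surface protease, was at 112, 104, 91.7 and 106 CPM in QZ1-hi and 156, 101, 107 and 117 CPM in QZ1-lo. Its log2 fold change of -0.22 (SE 0.15) had an adjusted p of 0.381 in edgeR, and the libraries overlapped. Adam10, the protease that starts Notch signalling after ligand binding, was at 90.6, 85.6, 87.5 and 78.5 CPM in QZ1-hi and 141, 102, 99.3 and 113 CPM in QZ1-lo. Every QZ1-hi library was below every QZ1-lo library, yet the log2 fold change of -0.41 (SE 0.13) missed the threshold in edgeR with an adjusted p of 0.0505. It passed under 8 of 16 other settings, with adjusted p-values from edgeR, DESeq2 and limma between 0.0208 and 0.153. Adam17, the protease that releases tumor necrosis factor and many ligands of the epidermal growth factor receptor, ranged from 57.3 to 73.5 CPM in QZ1-hi and from 46.0 to 58.6 CPM in QZ1-lo, and its log2 fold change of 0.22 (adjusted p = 0.276, edgeR) turned to -0.27 with scaling by library size alone. The ratio of Adam17 counts to Adam10 counts, which does not depend on the scaling between libraries, was 0.655 to 0.936 in QZ1-hi and 0.416 to 0.569 in QZ1-lo, without overlap. This ratio was chosen after the values were seen.

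Adam8 and Adam28 were the members that were lower in QZ1-hi. Adam8, a sheddase best known from myeloid cells and from tumors, was at 45.3, 32.6, 24.7 and 55.7 CPM in QZ1-hi and 71.6, 78.8, 64.2 and 61.2 CPM in QZ1-lo. All QZ1-hi libraries were below all QZ1-lo libraries, and the level was 1.74-fold lower (log2 -0.80, SE 0.22, adjusted p = 0.0263 in edgeR). The call was lost without QZ1-hi replicate 2 (adjusted p = 0.0684), without QZ1-lo replicate 1 (0.0604) and without QZ1-lo replicate 2 (0.0753), while the log2 fold change in these edgeR fits stayed between -0.78 and -0.73. Adam28, a protease found in airway epithelium and lymphocytes, was at 3.60, 6.67, 3.01 and 9.18 CPM in QZ1-hi and 11.3, 15.99, 18.5 and 14.9 CPM in QZ1-lo. The QZ1-hi libraries were again all below the QZ1-lo libraries, 2.71-fold lower (log2 -1.44, SE 0.33, adjusted p = 0.0114 in edgeR). Marker genes of airway cells differed in the same direction. All 3 club cell markers and all 3 ciliated cell markers were lower in QZ1-hi, with the summed club markers at 273 to 820 CPM in QZ1-hi and 1230 to 3559 CPM in QZ1-lo and the summed ciliated markers at 18.0 to 51.4 CPM and 95.5 to 185 CPM. Of 10 alveolar epithelial markers 6 were lower and 1 was higher, and their sums overlapped (5174 to 9552 and 4715 to 7136 CPM). Of 7 leukocyte markers tested, edgeR called 0 (0 at an unadjusted p under 0.05, 0 by DESeq2 and 0 by limma), and the sums of the list overlapped (493 to 1024 and 382 to 747 CPM). The part of these cells in the levels of Adam8 and Adam28 was not tested.

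Adam15, Adam19 and Adam33 were the ADAM genes higher in QZ1-hi. Adam15, a disintegrin protein present at endothelial junctions, was at 76.5, 57.7, 88.5 and 54.1 CPM in QZ1-hi and 26.5, 23.8, 20.3 and 24.3 CPM in QZ1-lo. The lowest QZ1-hi library was above the highest QZ1-lo library, and the level was 2.92-fold higher (log2 1.54, SE 0.17, adjusted p = 2.78e-04 in edgeR). At an adjusted p under 0.01, edgeR called 1 ADAM gene, Adam15. Its counts were 0.512 to 0.965 of the Adam9 counts in QZ1-hi and 0.170 to 0.236 in QZ1-lo, a ratio chosen after the values were seen. Adam19, which can shed neuregulin, was at 84.9, 55.8, 59.5 and 70.2 CPM in QZ1-hi and 51.2, 46.8, 44.6 and 36.6 CPM in QZ1-lo. The populations did not overlap and the difference was 1.51-fold (log2 0.59, SE 0.16, adjusted p = 0.0232 in edgeR). Leaving out QZ1-hi replicate 1 (adjusted p = 0.0627), QZ1-lo replicate 2 (0.0503) or QZ1-lo replicate 4 (0.0649) ended that edgeR call. Scaling by library size alone ended it too, at a log2 fold change of 0.15 (edgeR adjusted p = 0.706). Exons of Adam15 overlap 1263 bases of 4731419I09Rik on the other strand and those of Adam19 587 bases of Gm16033, and without the strand setting of the counting these reads cannot be told apart.

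Adam33, known from airway mesenchyme, was the rarest of the ADAM genes called, at 1.23, 3.16, 3.35 and 5.30 CPM in QZ1-hi and 0.686, 1.79, 0.470 and 0.491 CPM in QZ1-lo. QZ1-lo replicate 2 reached into the range of QZ1-hi, where replicate 1 was lowest. The log2 fold change was 1.92 (SE 0.60, adjusted p = 0.0472 in edgeR), and 8 of 16 other settings did not call it. These included leaving out QZ1-hi replicate 2, 3 or 4 (edgeR adjusted p = 0.0887, 0.0985 and 0.137) and QZ1-lo replicate 1, 3 or 4 (0.112, 0.0992 and 0.106), limma's voom (0.0765) and scaling by library size alone (edgeR, 0.0945). Without QZ1-lo replicate 2 the log2 fold change was 2.55 (edgeR adjusted p = 0.0177). Adam12, another ADAM of mesenchymal cells, ranged from 4.95 to 15.1 CPM in QZ1-hi and from 3.73 to 9.06 CPM in QZ1-lo and was not called (log2 0.65, edgeR adjusted p = 0.289).

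Adam11, Adam22 and Adam23 lack a complete zinc-binding motif and serve mainly as binding proteins in neurons, and 0 of the 3 was called by edgeR, 0 had an unadjusted p under 0.05, and DESeq2 and limma each called 0. Adam22 was at 4.24, 11.0, 4.86 and 8.10 CPM in QZ1-hi and 7.90, 13.3, 12.9 and 10.3 CPM in QZ1-lo. Its libraries overlapped, with a log2 fold change of -0.65 (SE 0.31, edgeR adjusted p = 0.196) that passed with scaling by library size alone (-1.18, adjusted p = 0.00818). Adam11 ranged from 0.212 to 0.790 CPM in QZ1-hi and from 0 to 2.81 CPM in QZ1-lo, and Adam23 from 4.05 to 8.64 CPM and from 0.724 to 7.89 CPM. Of the 22 ADAM genes listed as genes of testis, sperm or epididymis, 13 had no count in any library (Adam2, Adam6a, Adam6b, Adam18, Adam20, Adam24, Adam25, Adam26a, Adam26b, Adam29, Adam34, Adam34l and Adam39), which allows levels up to the floor of 0.0894 to 0.179 CPM. A further 6 had 11 to 124 counts over all libraries and were not tested. Adam1a, Adam1b and Adam4 were tested and not called, with log2 fold changes of -0.61 (SE 0.66), 0.04 (SE 0.88) and 0.41 (SE 1.24). Of the stretches of 50 bases in their exons, 77.8%, 32.4% and 17.4% occur in another gene, so their counts are uncertain, and the signs of Adam1b (-0.45) and Adam4 (-0.25) turned with scaling by library size alone. Among the 13 genes without a count, the share of such stretches reached 36.7% (Adam26b) and was 0 for Adam2, Adam18, Adam24 and Adam29. The floor covers counting error only and not reads that shared stretches may have kept from being counted.

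**Figure D3:**
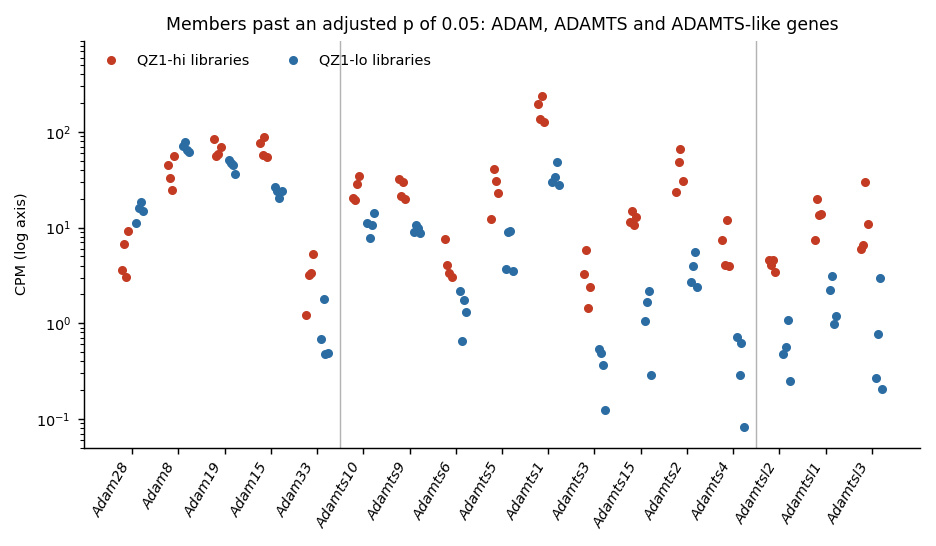
CPM on a log axis of the 17 members called, in the 4 QZ1-hi libraries (red, left of each pair) and the 4 QZ1-lo libraries (blue, right), with ADAM, ADAMTS and ADAMTS-like genes separated by grey lines. In 16 of the 17 the colors do not overlap, the exception being Adam33.

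The proteoglycan-cleaving ADAMTS genes gave 5 higher of 7 tested. Adamts1, which cuts versican and aggrecan and is known as an inhibitor of blood vessel growth, was at 198, 137, 236 and 127 CPM in QZ1-hi and 29.6, 34.1, 48.1 and 27.8 CPM in QZ1-lo. The lowest QZ1-hi library was above the highest QZ1-lo library, and the level was 5.01-fold higher (log2 2.32, SE 0.24, adjusted p = 2.63e-04 in edgeR). Adamts1 had a mean of 33.0 CPM per kb of exon in QZ1-hi, above 25.2 for Adam9, the first of the ADAM genes, and of 6.58 in QZ1-lo, below 29.2 for Adam9. Adamts5, the aggrecanase whose gene lies beside Adamts1 on chromosome 16 with 55.0 kb between them, was at 12.2, 40.6, 30.7 and 22.8 CPM in QZ1-hi and 3.73, 8.91, 9.16 and 3.48 CPM in QZ1-lo. The populations did not overlap (log2 2.07, SE 0.41, adjusted p = 0.00513 in edgeR), but the order of the QZ1-hi libraries differed from that of Adamts1, since replicate 2 was the highest for Adamts5 and the second lowest for Adamts1. Adamts4, the other main aggrecanase, had the largest fold of the members tested, at 7.46, 4.05, 11.9 and 3.99 CPM in QZ1-hi and 0.716, 0.285, 0.615 and 0.0819 CPM in QZ1-lo. That was 15.6-fold (log2 3.97, SE 0.61, adjusted p = 0.00117 in edgeR), with 531 counts in QZ1-hi and 50 in QZ1-lo. The Adamts4 value of QZ1-lo replicate 4 lay under the floor of 0.123 CPM of that library, so the size of this fold is uncertain. Exons of Adam8, Adam17, Adamts7 and Adamts8 overlap 46 to 489 bases of other genes on the other strand.

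Adamts9, a versican protease of vascular and mesenchymal tissues, was at 31.9, 21.1, 29.7 and 20.0 CPM in QZ1-hi and 9.004, 10.5, 9.84 and 8.72 CPM in QZ1-lo. The difference was 2.70-fold without overlap (log2 1.43, SE 0.19, adjusted p = 5.63e-04 in edgeR), and 1381 bases of its exons overlap A730049H05Rik on the other strand. Adamts20, its closest relative, was the ADAMTS gene with a negative value, at 0.297, 2.17, 0 and 1.07 CPM in QZ1-hi and 1.64, 2.24, 3.33 and 2.86 CPM in QZ1-lo. It was not called (log2 -1.50, SE 0.86, edgeR adjusted p = 0.291), except with scaling by library size alone (-2.12, adjusted p = 0.0429). Adamts15 and Adamts8 are neighbours on chromosome 9, with 20.1 kb between them, and differed in their result. Adamts15 was at 11.3, 14.8, 10.7 and 13.0 CPM in QZ1-hi and 1.04, 1.67, 2.17 and 0.286 CPM in QZ1-lo, 9.59-fold higher without overlap (log2 3.26, SE 0.45, adjusted p = 7.43e-04 in edgeR). Adamts8 ranged from 1.73 to 2.32 CPM in QZ1-hi and from 0.123 to 2.36 CPM in QZ1-lo and was not called (log2 0.62, SE 0.66, edgeR adjusted p = 0.604). The ratio of Adamts15 counts to Adamts8 counts, chosen after the values were seen, was 5.59 to 6.98 in QZ1-hi and 0.443 to 2.33 in QZ1-lo.

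The procollagen N-propeptidases remove the amino-terminal propeptide of fibrillar collagens, and 2 of 3 were higher. Adamts2 was at 23.5, 48.4, 66.4 and 31.0 CPM in QZ1-hi and 2.71, 3.99, 5.61 and 2.37 CPM in QZ1-lo. Every QZ1-hi library was far above every QZ1-lo library, 11.5-fold on the fitted scale (log2 3.53, SE 0.37, adjusted p = 2.78e-04 in edgeR). Adamts3, which also activates the lymphatic growth factor VEGF-C, was at 3.31, 5.78, 1.45 and 2.38 CPM in QZ1-hi and 0.537, 0.488, 0.362 and 0.123 CPM in QZ1-lo. It was 8.40-fold higher without overlap (log2 3.07, SE 0.62, adjusted p = 0.00523 in edgeR), on 260 counts against 43. Adamts14, the remaining member, ranged from 1.04 to 2.16 CPM in QZ1-hi and from 0.0409 to 2.82 CPM in QZ1-lo and was not called (log2 0.73, SE 0.88, edgeR adjusted p = 0.654). Per kb of exon, Adamts2 had the second highest ADAMTS level over all libraries, with means of 4.53 CPM per kb in QZ1-hi and 0.393 in QZ1-lo.

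Of the 4 fibrillin-associated ADAMTS genes tested, 2 were higher. Adamts10, which binds fibrillin microfibrils, was at 20.2, 19.3, 28.7 and 34.2 CPM in QZ1-hi and 11.2, 7.85, 10.6 and 14.3 CPM in QZ1-lo. The groups did not overlap and the difference was 2.33-fold (log2 1.22, SE 0.24, adjusted p = 0.00421 in edgeR), and the call was lost with scaling by library size alone (0.71, adjusted p = 0.0883). Adamts6, its closest relative, was at 7.58, 4.10, 3.35 and 3.04 CPM in QZ1-hi and 2.15, 0.651, 1.74 and 1.31 CPM in QZ1-lo. QZ1-hi replicate 1 stood highest, and the log2 fold change of 1.62 (SE 0.45, adjusted p = 0.0292 in edgeR) fell to 1.25 without it (adjusted p = 0.113). The edgeR call was also lost without QZ1-hi replicate 2 (adjusted p = 0.0534), QZ1-lo replicate 2 (0.0615) or QZ1-lo replicate 4 (0.0671), and with scaling by library size alone (log2 1.19, adjusted p = 0.112). Adamts17 was at 0.847, 0.445, 0.752 and 1.19 CPM in QZ1-hi and 0, 0, 0.543 and 0.0409 CPM in QZ1-lo. The fitted log2 fold change was 2.42 (SE 1.17, edgeR adjusted p = 0.200) and was called (adjusted p = 0.0116) without QZ1-lo replicate 3, where the remaining QZ1-lo libraries were at or under the floor and no fold is given. It was also called by limma's voom (adjusted p = 0.0181). Adamts19 was at 1.27, 0.988, 2.02 and 1.37 CPM in QZ1-hi and 0, 0.651, 0.579 and 0 CPM in QZ1-lo. The populations of Adamts19 did not overlap, but with 140 counts in all the log2 fold change of 2.19 (SE 1.09) was not called by edgeR (adjusted p = 0.215), while limma's voom called it (adjusted p = 0.0367).

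Adamts7 and Adamts12, which cut cartilage oligomeric matrix protein, lay just outside the threshold in edgeR, and both were called higher by DESeq2 and by limma's voom. Adamts7 was at 3.52, 3.70, 1.85 and 1.43 CPM in QZ1-hi and 1.37, 0.529, 0.181 and 0.532 CPM in QZ1-lo. The groups did not overlap, with a log2 fold change of 1.99 (SE 0.64, edgeR adjusted p = 0.0529) that became 2.66 (adjusted p = 0.0234) without QZ1-lo replicate 1. DESeq2 gave Adamts7 an adjusted p of 0.0123 and limma one of 0.0452. Adamts12 was at 8.09, 10.8, 8.15 and 2.03 CPM in QZ1-hi and 0.537, 1.59, 3.69 and 0.205 CPM in QZ1-lo. QZ1-lo replicate 3 was above QZ1-hi replicate 4, and the log2 fold change of 2.27 (SE 0.74) had an edgeR adjusted p of 0.0565. Without QZ1-lo replicate 3 it was 3.23 (edgeR adjusted p = 0.0118) and without QZ1-hi replicate 4 it was 2.63 (0.0284). DESeq2 gave Adamts12 an adjusted p of 0.00789 and limma one of 0.0220, and edgeR called it with no filter (0.0372) and with scaling by library size alone (0.0344). Adamts13, the protease that cuts von Willebrand factor in blood, had 33 counts over all libraries, Adamts16 had 12, all in QZ1-hi replicate 2, and Adamts18 had 5, and these 3 genes were not tested.

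**Figure D4:**
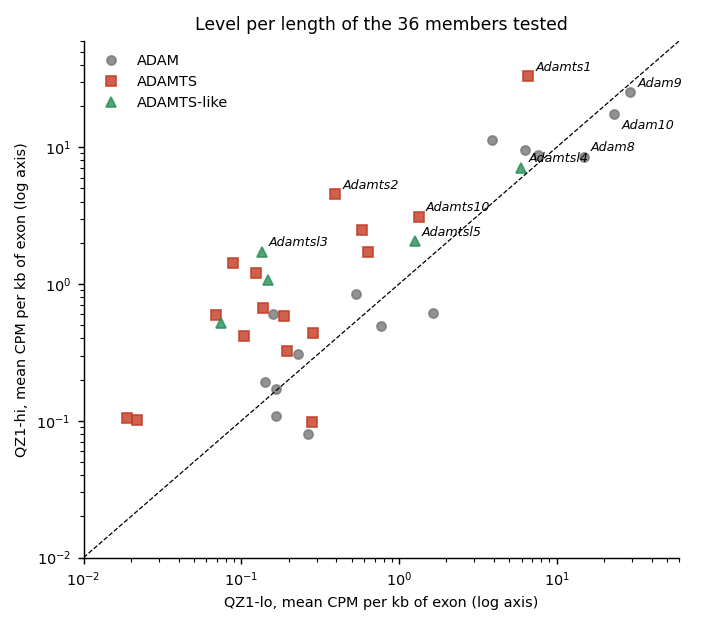
Mean CPM per kb of exon in QZ1-lo (x axis, log) and QZ1-hi (y axis, log) for the 36 members tested, with the 3 highest members of each family named and a dashed line where both are equal. Adamts1 was the highest member in QZ1-hi at 33.0, while Adam9 was the highest in QZ1-lo at 29.2, and most ADAMTS squares lie above the line.

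Among the ADAMTS-like genes the 3 rarer members in QZ1-lo were higher in QZ1-hi and the other two were not called. Adamtsl1, a matrix glycoprotein also named punctin, was at 7.37, 20.1, 13.6 and 13.8 CPM in QZ1-hi and 2.24, 3.13, 0.977 and 1.19 CPM in QZ1-lo, without overlap. Its level was 7.26-fold higher (log2 2.86, SE 0.41, adjusted p = 8.78e-04 in edgeR). Adamtsl2, which binds fibrillin and latent TGF-beta binding protein 1, was at 4.53, 4.05, 4.57 and 3.40 CPM in QZ1-hi and 0.477, 0.570, 1.09 and 0.246 CPM in QZ1-lo. All of its QZ1-hi libraries lay within a narrow range above QZ1-lo, 6.89-fold higher (log2 2.79, SE 0.48, adjusted p = 0.00225 in edgeR). Adamtsl3 was at 5.97, 6.52, 29.8 and 11.0 CPM in QZ1-hi and 0.268, 0.773, 2.93 and 0.205 CPM in QZ1-lo. Replicate 3 was the highest in each population, and the log2 fold change of 3.66 (SE 0.81, adjusted p = 0.00870 in edgeR) was 2.88 without QZ1-hi replicate 3 (adjusted p = 0.0298) and 5.01 without QZ1-lo replicate 3 (0.00138).

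Adamtsl4, a fibrillin-binding protein of the lens zonule, had the highest level per length of the ADAMTS-like genes. It was at 17.8, 30.0, 40.2 and 30.9 CPM in QZ1-hi and 24.9, 24.5, 24.8 and 25.7 CPM in QZ1-lo. The QZ1-lo libraries nearly coincided and lay inside the range of QZ1-hi, and the log2 fold change of 0.25 (SE 0.21, edgeR adjusted p = 0.485) turned to -0.24 with scaling by library size alone. Adamtsl5 was at 8.90, 12.3, 8.96 and 8.52 CPM in QZ1-hi and 5.55, 5.09, 9.44 and 3.64 CPM in QZ1-lo. QZ1-lo replicate 3 fell among the QZ1-hi libraries, and the log2 fold change of 0.71 (SE 0.29, edgeR adjusted p = 0.129) became 1.02 without it (adjusted p = 0.0192). It was called by limma's voom as well (adjusted p = 0.0299).

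Marker genes of endothelial and mesenchymal cells differed in the same direction as the ADAMTS and ADAMTS-like genes and as Adam15, Adam19 and Adam33. Of 16 endothelial markers 14 were higher in QZ1-hi and 0 lower, and their sum was 1803 to 3702 CPM in QZ1-hi and 356 to 628 CPM in QZ1-lo. Pecam1, which encodes CD31, was at 293 ± 121 CPM (SD, n = 4) and 30.5 ± 25.9 CPM (SD, n = 4). Of 12 fibroblast markers tested 8 were higher and 0 lower, with sums of 1736 to 2827 CPM and 559 to 1014 CPM. Of 7 pericyte markers 4 were higher and 0 lower, with sums of 197 to 336 CPM and 26.5 to 70.6 CPM. All 3 mesothelial markers were higher (29.7 to 208 CPM and 5.44 to 27.5 CPM), though Msln and Upk3b overlapped between the populations. QZ1-hi replicate 2 was the highest QZ1-hi library for all 3, with Upk3b at 126 CPM there and at 16.4 to 26.4 CPM in the remaining QZ1-hi libraries. Of 3 smooth muscle markers 1 was higher and 1 lower (13.3 to 27.5 CPM and 7.45 to 12.1 CPM). Of 7 platelet and red cell genes 3 were higher and 0 lower, and their sums overlapped (78.9 to 493 CPM and 135 to 1475 CPM). At an unadjusted p under 0.05, edgeR gave 0 lower genes in the endothelial, pericyte and mesothelial lists, 1 in the fibroblast list and 2 in the platelet and red cell list, and DESeq2 and limma called 0 lower in each. No marker listed was at 0 in all libraries, and the part of these cells in the levels of the members was not tested.

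The partners and substrates of the families were followed in lists of 69 genes, chosen with earlier results of these data known. Of these genes, 63 were tested, 26 were higher and 6 lower in QZ1-hi. Each of the 32 genes called kept its sign with DESeq2 size factors and with scaling by library size alone. Calls were not all kept with scaling by library size alone, where 3 inhibitors were higher, 0 partners of Adam10 and Adam17 higher and 1 lower, 0 convertases higher, 5 shed substrates higher and 8 lower, and 9 matrix substrates higher and 1 lower. With this scaling 3 partners and relatives of ADAMTS-like proteins were higher and 1 lower. In the lists of inhibitors, partners, convertases and clearance genes 0 were lower in edgeR (0 at an unadjusted p under 0.05, 0 by DESeq2 and 0 by limma). Of the inhibitors 4 of 5 tested were higher, namely Timp1, Timp2, Timp3 and Reck. Timp3, the matrix-bound inhibitor of Adam17, Adamts4 and Adamts5, was at 303, 297, 465 and 272 CPM in QZ1-hi and 211, 177, 198 and 164 CPM in QZ1-lo, without overlap (log2 0.83, SE 0.17, adjusted p = 0.00646 in edgeR). Reck, a membrane-anchored inhibitor of metalloproteases, was 6.20-fold higher (log2 2.63, SE 0.47, adjusted p = 0.00275 in edgeR). Of 8 partners of Adam10 and Adam17 tested, which include the iRhoms and the TspanC8 tetraspanins, 1 was higher and 0 lower. The iRhom genes Rhbdf1 and Rhbdf2 had log2 fold changes of -0.12 and -0.33 and were not called (adjusted p = 0.710 and 0.220 in edgeR). The partner called was Tspan14 (0.57, SE 0.17, adjusted p = 0.0362 in edgeR), whose libraries overlapped. Of 4 proprotein convertases, which activate the zymogens, 1 was higher, Pcsk5 (log2 1.36, SE 0.39, adjusted p = 0.0333 in edgeR), though its libraries overlapped. Furin was at 129 ± 17.9 and 116 ± 8.89 CPM (SD, n = 4 each) and was not called. Of 3 genes for glycosylation and clearance 1 was higher, Lrp1 (log2 1.37, SE 0.21, adjusted p = 0.00110 in edgeR), the scavenger receptor that takes up Adamts4 and Adamts5.

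Substrates shed by ADAM proteases moved in both directions, with 7 higher and 6 lower of 24 tested. Higher were the endothelial receptors and adhesion genes Tek (log2 3.79), Cdh5 (3.54), Kdr (2.54), Ephb4 (1.90) and Vcam1 (1.66), with Notch1 (0.72) and Tnfrsf1a (0.79). Lower were the cytokine Tnf (log2 -1.42), the epithelial cadherin Cdh1 (-1.34), the growth factors Areg (-1.32) and Hbegf (-0.54), L1cam (-1.17) and Cxcl16 (-1.10). Areg, an epidermal growth factor receptor ligand released by Adam17, was at 74.8, 94.3, 65.4 and 56.3 CPM in QZ1-hi and 178, 183, 179.9 and 187 CPM in QZ1-lo, all QZ1-hi libraries being lower (SE 0.15, adjusted p = 3.32e-04 in edgeR). Matrix and other substrates of ADAMTS proteases gave 9 higher and 0 lower of 12 tested. Vcan, which encodes versican, was at 50.5, 65.8, 62.3 and 42.1 CPM in QZ1-hi and 12.8, 18.0, 15.6 and 6.55 CPM in QZ1-lo, 4.17-fold higher without overlap (log2 2.06, SE 0.27, adjusted p = 6.10e-04 in edgeR). Bgn, Dcn, Vwf, Thbs2, Vegfc, Col1a1, Col1a2 and Col3a1 were also higher, with log2 fold changes from 2.38 to 3.54, whereas Thbs1 was at 437 ± 109 and 591 ± 104 CPM (SD, n = 4 each) and not called (log2 -0.44, adjusted p = 0.162 in edgeR). Acan, which encodes aggrecan, had no count in any library. At an unadjusted p under 0.05, edgeR gave 1 lower gene in this list, and DESeq2 and limma called 0. Of the partners and relatives of ADAMTS-like proteins 3 of 7 were higher, Fbn1 (log2 3.25, adjusted p = 0.00173 in edgeR), Ltbp1 (2.90, 0.00117) and Thsd7a (2.28, 0.00510). Adamdec1, a relative of ADAM proteases, had a log2 fold change of -1.34 (adjusted p = 0.0744 in edgeR) and was called lower by DESeq2 and not by limma. Cdh1, Cdh5, Vwf, Col1a1 and Col1a2 stand in the marker lists too.

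**Figure D5:**
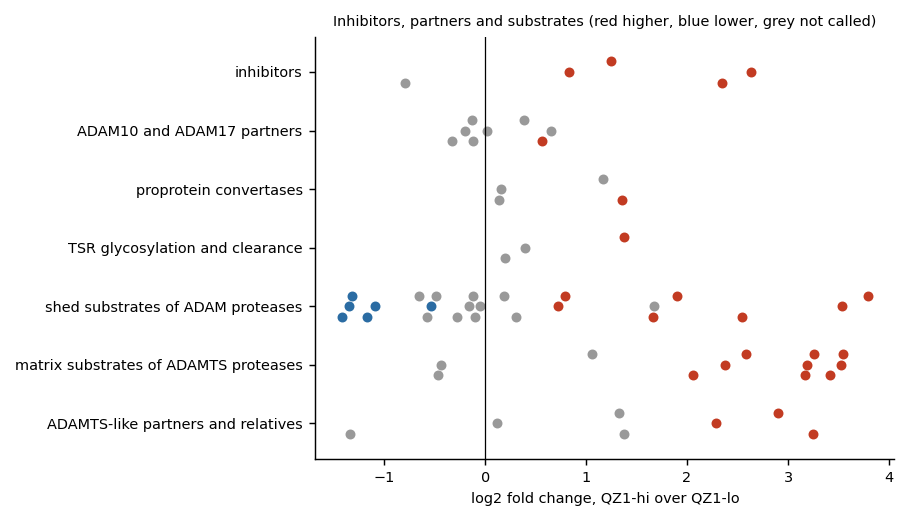
Log2 fold change of QZ1-hi over QZ1-lo (x axis) of the 63 partner and substrate genes tested, 1 point a gene, by list (y axis), with red for higher, blue for lower and grey for not called. The 9 matrix substrates called lie between 2.06 and 3.54, while substrates shed by ADAM proteases lie on both sides of 0.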

How the data were processed

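Bulk RNA-seq of 4 QZ1-hi and 4 QZ1-lo libraries was used. The deposited values are unnormalized counts, 1 per gene and library, which the authors obtained with Rsubread from stranded total RNA libraries (SMARTer kit, NextSeq500). The submitters' processing notes name mm10 and DESeq2, while the aligner, the annotation and the strand setting are not given in the sources used here. Entrez Gene identifiers were matched to symbols by RefSeq (25275) and GENCODE M21 (17), and 1887 had none.

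The test was run with edgeR 4.0.16 under R 4.3.3 (TMM scaling, filterByExpr with a minimum count of 10 and a minimum total of 15, quasi-likelihood test, Benjamini-Hochberg adjustment over 15583 genes, threshold 0.05). The common dispersion was 0.113. Each SE was derived from the F statistic, as the size of the change over its root. CPM uses the TMM-scaled totals, and exon lengths and shared stretches of 50 bases come from GENCODE M21 on GRCm38.p6. Values in every library are given for members called, for members whose call changes under an alternative, and for the 3 members of each family with the highest level per length. Members and gene lists were chosen with earlier results of these data known. The marker lists follow the cell types of the study, with leukocyte, platelet and red cell genes added.

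Alternatives were DESeq2 1.42.0, limma 3.58.1 (voom with quality weights), DESeq2 size factors in edgeR, library size only, leaving out each library, no filter, a minimum of 10 counts per library throughout, removal of 16 mitochondrial and ribosomal RNA genes, robust shrinkage and a threshold of 0.01. Replicate numbers were given in accession order and only name the libraries, so no pairing was used.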

Additional observations from a re-analysis of the deposited data

Results flagged for a closer look

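In 4 of 80 groups of 4 libraries examined, 1 library stood further from its nearest neighbour than Dixon's critical value allows (gap over range), and chance flags about 1 in 20 groups. Adamtsl5 was at 12.3 CPM in QZ1-hi replicate 2, where the remaining QZ1-hi libraries had 8.52 to 8.96 CPM. Adam33 was at 1.79 CPM in QZ1-lo replicate 2, where the remaining QZ1-lo libraries had 0.470 to 0.686 CPM. Adamts17 was at 0.543 CPM in QZ1-lo replicate 3, against 0 to 0.0409 CPM. The ADAM genes summed to 542 CPM in QZ1-lo replicate 1, against 433 to 449 CPM.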

How the results depend on the processing

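Of the 17 members called, 12 were called under each of the 16 alternative fits that tested them, and 5 (Adam8, Adam19, Adam33, Adamts6 and Adamts10) lost the call in at least 1. Of 19 members not called, 8 gained a call in at least 1. At an adjusted p under 0.01, 1567 genes and 1 ADAM gene were called. With 16 mitochondrial and ribosomal RNA genes removed, edgeR called 2820 genes, as with all genes kept. In that fit 15 members were higher and 3 lower, Adam10 being added (adjusted p = 0.0494). ADAM genes called ranged from 3 to 5 with each library left out, against 5 with all libraries. With at least 10 counts in every library 1 ADAMTS-like gene was called, since fewer members were tested (20 of 36). The log2 fold change turned negative with library size only for Adam17 (-0.27), Adam1b (-0.45), Adam4 (-0.25) and Adamtsl4 (-0.24). That of Adam1b was also -0.55 with limma's voom and ranged from -0.49 to 0.42 with each library left out, being negative without QZ1-hi replicate 1 or 2 or QZ1-lo replicate 1 or 2. Apart from the scaling, whose effect on the median is given above, the cause was not tested. No paired analysis was possible because the labels give the libraries no replicate number and no mouse, and the numbers used here follow accession order. Depth limits the members at a few counts, such as Adam4 and Adamts17. Members without counts are bounded by the floor of 3 counts, which covers counting error only.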
